A study of Homo sapiens with 24 samples.

Results

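A set of 37 protein-coding genes linked to the transcription factor ATF4, covering amino acid supply and the integrated stress response, was followed across 24 RNA libraries from PPC1 cells. PPC1 is an established human prostate cancer cell line, used here as a single line. The members were picked by gene symbol from the deposited count table, which held 48162 genes, and were proposed with the division of the parental libraries described below already seen in these data. They comprised 9 enzymes of amino acid synthesis, 5 mitochondrial or one-carbon enzymes, 8 amino acid transporters, 8 transcription factors, 4 stress effectors and 3 secreted proteins or receptors. Each of the 4 conditions was represented by 6 libraries, numbered 1 to 6. Parental cells (UT) received neither radiation nor drug and were collected on day 5 without filtration. Parental cells under drug (UT_LCL) received 5 µM LCL521, an inhibitor of the lysosomal enzyme acid ceramidase, for 5 h. Polyploid giant cancer cells (PGCC) were obtained by 8 Gy of radiation on day 2, and on day 5 the cells retained by a 20 micron filter were kept. PGCC under drug (PGCC_LCL) received the radiation, the same drug exposure and the filter. Radiation, time after radiation and selection for size therefore cannot be told apart in any comparison of PGCC with parental cells, and whether the cells without drug received its solvent is not given in the sources used here.

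ATF4 is translated when stress kinases phosphorylate the initiation factor eIF2, which slows most protein synthesis while favouring the ATF4 message through its upstream reading frames. ATF4, often paired with a C/EBP protein, then activates genes for serine, asparagine and proline synthesis, amino acid import and the folate cycle, and, under lasting stress, factors such as CHOP (gene DDIT3) that can lead to cell death. The pathway serves cancer cells during amino acid shortage, hypoxia, oxidative stress and accumulation of misfolded protein in the endoplasmic reticulum.

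Libraries held 14835246 to 19906601 gene counts, and a limit of 3 counts corresponded to 0.150 to 0.208 CPM, the gene count scaled to a common library size with the TMM factors of edgeR (0.923 to 1.07). All 37 members passed the filter on low counts in every comparison, the lowest being ALDH1L2 at 0.364 to 1.45 CPM. Of 5 epithelial markers, KRT8, KRT18 and KRT19 were at 50.6 to 1124 CPM, while EPCAM did not exceed 0.852 CPM and CDH1 did not exceed 6.5 CPM. The prostate luminal markers KLK3 and KLK2 were at 0 in all 24 libraries, and TMPRSS2 did not exceed 0.126 CPM. The summed level of 4 markers of leukocytes and fibroblasts (PTPRC, COL1A1, COL3A1 and LUM, none of them at 0 throughout) was 9.09 to 14.9 CPM in parental cells and 12.8 to 16.3 CPM in PGCC, and 11.2 and 9.09 CPM in parental replicates 4 and 5. Single markers moved more than the sum: of the 3 that passed the filter, PTPRC and COL3A1 were called higher in PGCC under LCL521 (log2 fold changes 1.25 and 0.91, adjusted p = 0.0109 and 0.0401). PTPRC was 2.21 and 2.74 CPM in parental replicates 4 and 5 and 0.406 to 0.722 CPM in the other 4, whereas COL1A1 was 5.69 and 5.54 CPM against 7.13 to 13.2 CPM. The part of these markers in the results was not tested. In bulk RNA, fewer cells of a type and less RNA per cell cannot be told apart. PSPH, PSAT1, SLC7A5 and ATF4 have near-identical pseudogene copies, and how reads were shared among copies was not tested.

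The promoters of the members were searched for 2 sequences, because many members are reported targets of one factor. The first, TGATGNAA, is the core of the C/EBP-ATF response element, and the second, TGACGTCA, is the cAMP response element. Both strands were searched, and neither sequence contains the other. In RefSeq windows of 300 bases (250 before to 50 after each start, build GRCh38.p14), 29 of 37 members had an entry, and TGATGNAA was present in 10 of these 29 (34.5%), namely ASNS, ATF3, CEBPG, CHAC1, JDP2, MTHFD1L, SLC1A4, SLC1A5, SLC3A2 and SLC7A1. It was present in 4.46% of all 27305 gene symbols in that table. Counted by window, it was in 12 of the 51 windows of the members and in 3.62% of all 35116 windows. TGACGTCA was in none of the 29 members and in 2.25% of all symbols. Since some members may have been listed as ATF4 targets because they carry the element, these shares are a description. The matches below are those of the 4 members with the largest fitted decrease in PGCC under LCL521 among these 10, in order of its size, and of ATF3, the only member with a fitted increase that held a match; the match and its distance from the start are shown in capitals and words, respectively. All are written 5′ to 3′ along the gene.
ASNS, chr7:97872444-97872501, minus strand, match 68 bases before the start: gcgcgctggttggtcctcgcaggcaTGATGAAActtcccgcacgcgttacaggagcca
CHAC1, chr15:40953237-40953294, plus strand, match 209 bases before the start on the opposite strand: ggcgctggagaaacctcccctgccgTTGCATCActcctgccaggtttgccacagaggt
SLC1A4, chr2:64989367-64989399, plus strand, match 7 bases before the start on the opposite strand: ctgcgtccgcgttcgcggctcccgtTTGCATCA
MTHFD1L, chr6:150866332-150866389, plus strand, match 90 bases before the start: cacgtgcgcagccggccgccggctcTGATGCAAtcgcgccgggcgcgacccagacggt
ATF3, chr1:212565191-212565248, plus strand, match 191 bases before the start: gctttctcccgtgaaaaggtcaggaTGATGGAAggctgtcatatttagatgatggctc
Of these 5 genes, ASNS and MTHFD1L were lower in PGCC in every same-numbered pair, whereas the direction for CHAC1, SLC1A4 and ATF3 depended on which replicates were compared, as described below.

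Among the parental libraries, replicates 4 and 5 stood apart from replicates 1, 2, 3 and 6 in nearly the whole set. Both were above the other 4 libraries for 33 of 37 members, against 25.2% of all genes, and both were below them for ALDH18A1 and ATF5, against 25.5% of all genes. ALDH1L2 and VLDLR overlapped. The median ratio of the mean of replicates 4 and 5 to the mean of the other 4 was 2.80 over the members and 0.998 over all 14555 genes that passed the filter in the 24 libraries. The ratio exceeded 2 for 24 members and for 4.55% of all genes, and it exceeded 10 for CHAC1, SESN2 and NUPR1 and for only 9 genes in all. For all genes 0.5 CPM was added to each mean before the ratio was taken, which lowers large ratios of weakly expressed genes. The ratios of the members are without it. As this division was used to propose the members, it is described and not tested.

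The division was also present in the parental cells under LCL521. These are no independent evidence of it, because the members were proposed with all 4 conditions in view and same-numbered parental libraries with and without drug deviated together from their group means (correlations of 0.458 to 0.813). Again 33 members were above (23.5% of all genes) and ALDH18A1 and ATF5 were below (23% of all genes), with a median ratio of 2.67. In PGCC the division was not of this form. Replicates 4 and 5 were both above the other 4 PGCC libraries for 3 members (21.6% of all genes), both below for ATF3, ATF5 and CEBPB (18.7% of all genes), and overlapped for 31, with a median ratio of 1.09 and no member above 1.79. In PGCC under LCL521, 2 members were above (19.5%), 10 were below (20.4%) and 25 overlapped. The parental libraries with high levels and the PGCC libraries that did not share them bore the same replicate numbers, so the difference between PGCC and parental cells was not the same in all pairs.

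**Figure D1:**
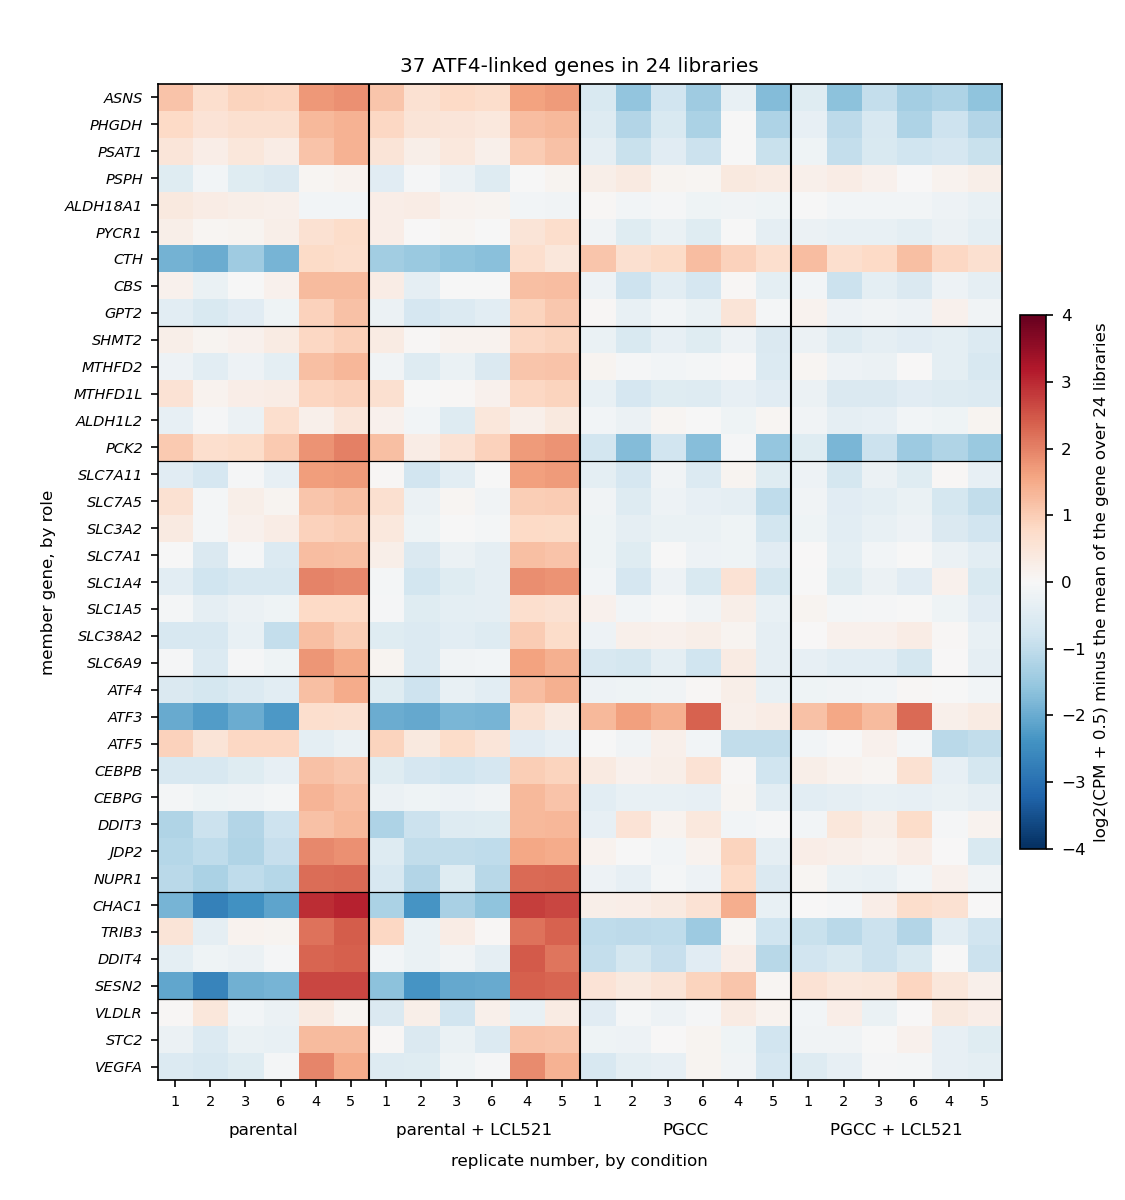
Rows are the 37 members by role and columns are the 24 libraries by condition, with replicates 4 and 5 placed last in each condition; colour gives log2(CPM + 0.5) minus the mean of the gene over the 24 libraries. Replicates 4 and 5 of both parental conditions are red for most rows, with ATF5 the clearest exception, and no such block is seen in the PGCC conditions.

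**Figure D2:**
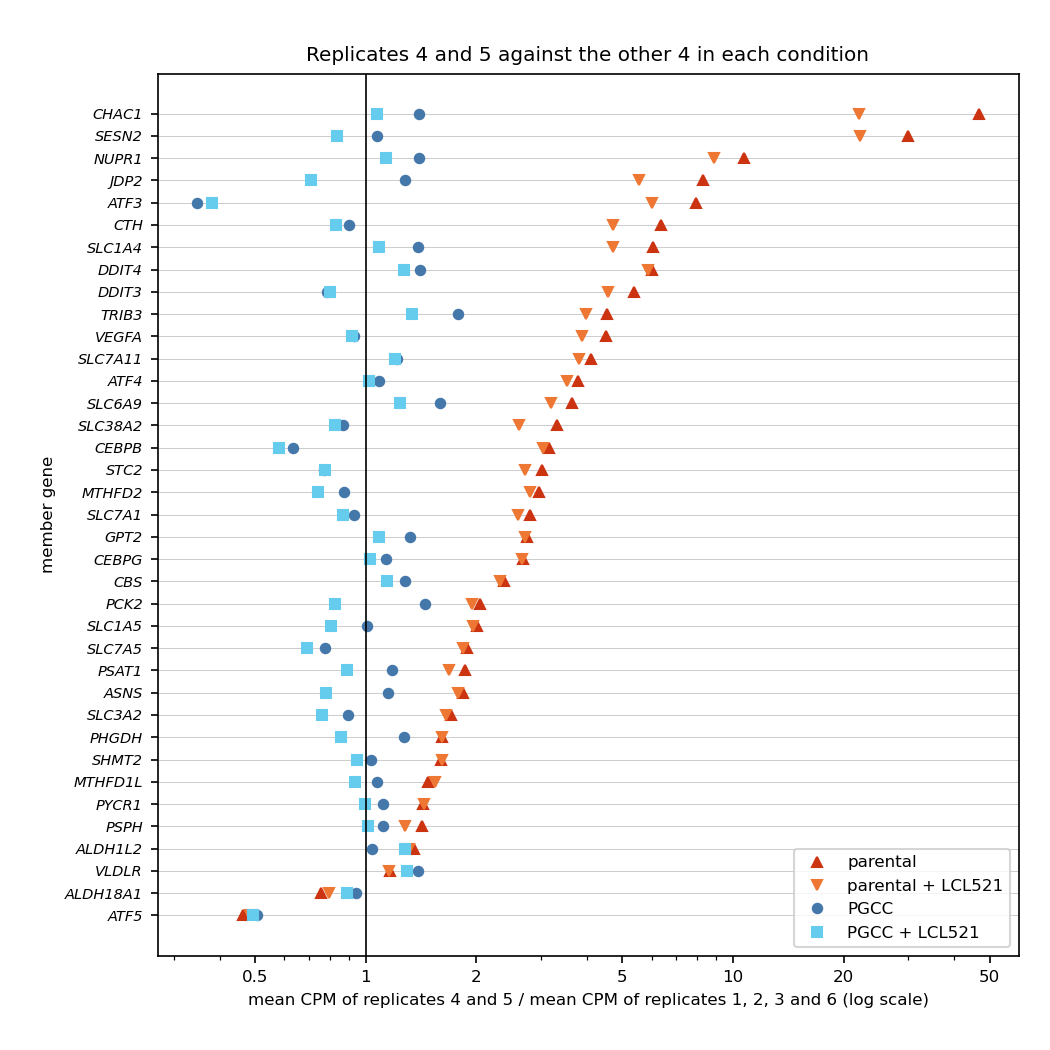
For each member, the mean CPM of replicates 4 and 5 divided by the mean of replicates 1, 2, 3 and 6 is plotted on a log scale for each of the 4 conditions, ordered by the ratio in parental cells. Parental ratios run from 0.463 for ATF5 to 46.9 for CHAC1, whereas those of PGCC run from 0.346 for ATF3 to 1.79 for TRIB3.

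By role, the stress effectors differed most between the parental libraries. Their ratios ran from 4.53 to 46.9 with a median of 18.0, followed by the transcription factors (median 4.57), the transporters (3.05), the secreted proteins and receptor (3.02), the synthesis enzymes (1.84) and the mitochondrial and one-carbon enzymes (1.60). In PGCC the medians of the 6 roles lay between 0.929 and 1.40.

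PGCC were next compared with parental cells. Without LCL521, 19 of 37 members passed the threshold of the edgeR fit, against 47.4% of all 13812 genes tested; 3 were higher (23.1% of all genes) and 16 were lower (24.3% of all genes), with a median log2 fold change of −0.76 over the members and −0.03 over all genes. When replicates 4 and 5 were left out of both groups, 30 members passed (54.6% of all genes), with 14 higher (27.7%) and 16 lower (26.9%), and the median was −0.06. These counts come from a contrast that was known when the members were proposed, and nothing further is read from them.

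Under LCL521, in libraries that are not independent of those without drug, 18 members passed an adjusted p of 0.05 (quasi-likelihood test of edgeR, adjusted by the Benjamini-Hochberg method over 13818 genes), against 48.9% of all genes. ATF3, CTH and PSPH rose (25% of all genes were called higher) and 15 members fell (23.9% of all genes were called lower). Fitting the replicate number as a block gave 3 higher (29.5% of all genes) and 16 lower (26.8%), with 56.3% of all genes called. Without replicates 4 and 5 the count was 29 (52.5% of all genes), with 15 higher (27.9%) and 14 lower (24.6%), and the median log2 fold change of the members moved from −0.62 to 0.09, while that of all genes was −0.01 and 0.01. The 3 rises were shared by all of these fits. Of the 15 falls, 12 were also called without replicates 4 and 5, while CEBPG, SLC6A9 and SLC7A11 were not, and ALDH18A1 and ATF5 were added. The members were proposed with all 4 conditions in view, and the removal of replicates 4 and 5 follows the division used to propose them. All calls and adjusted p values of members in PGCC against parental cells, here and below, are therefore descriptions.

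The pairs of same-numbered libraries gave a constant, a crossing and a mixed group of members. The crossing group restates the high levels of parental replicates 4 and 5 that were seen when the members were proposed, so its counts and the shares of all genes beside them are descriptions. Without LCL521, 16 members were lower in PGCC in all 6 pairs (24.7% of all genes), PSPH was higher in all 6 (25.5% of all genes), and 13 were higher in pairs 1, 2, 3 and 6 but lower in pairs 4 and 5, a pattern held by 4.27% of all genes. The other 7 members (CTH, GPT2, ALDH1L2, SLC7A11, SLC7A1, VLDLR and VEGFA) had mixed signs. Under LCL521 the corresponding counts were 15 (25%), 2 (PSPH and CTH; 25.3%) and 12 (3.76%), with 8 mixed. The crossing pattern was present in both drug states for 11 members, ATF3, ATF4, CEBPB, CHAC1, DDIT3, JDP2, MTHFD2, NUPR1, SESN2, SLC1A5 and SLC38A2. The members lower in all pairs in both states were 15, ALDH18A1, ASNS, ATF5, CBS, CEBPG, DDIT4, MTHFD1L, PCK2, PHGDH, PSAT1, PYCR1, SHMT2, SLC3A2, SLC7A5 and TRIB3. For 9 members all 6 PGCC libraries lay below all 6 parental libraries without drug (12.3% of all genes), and likewise for 9 under LCL521 (13.1%), with ASNS, MTHFD1L, PCK2, PHGDH, PSAT1, PYCR1 and SHMT2 in both.

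**Figure D3:**
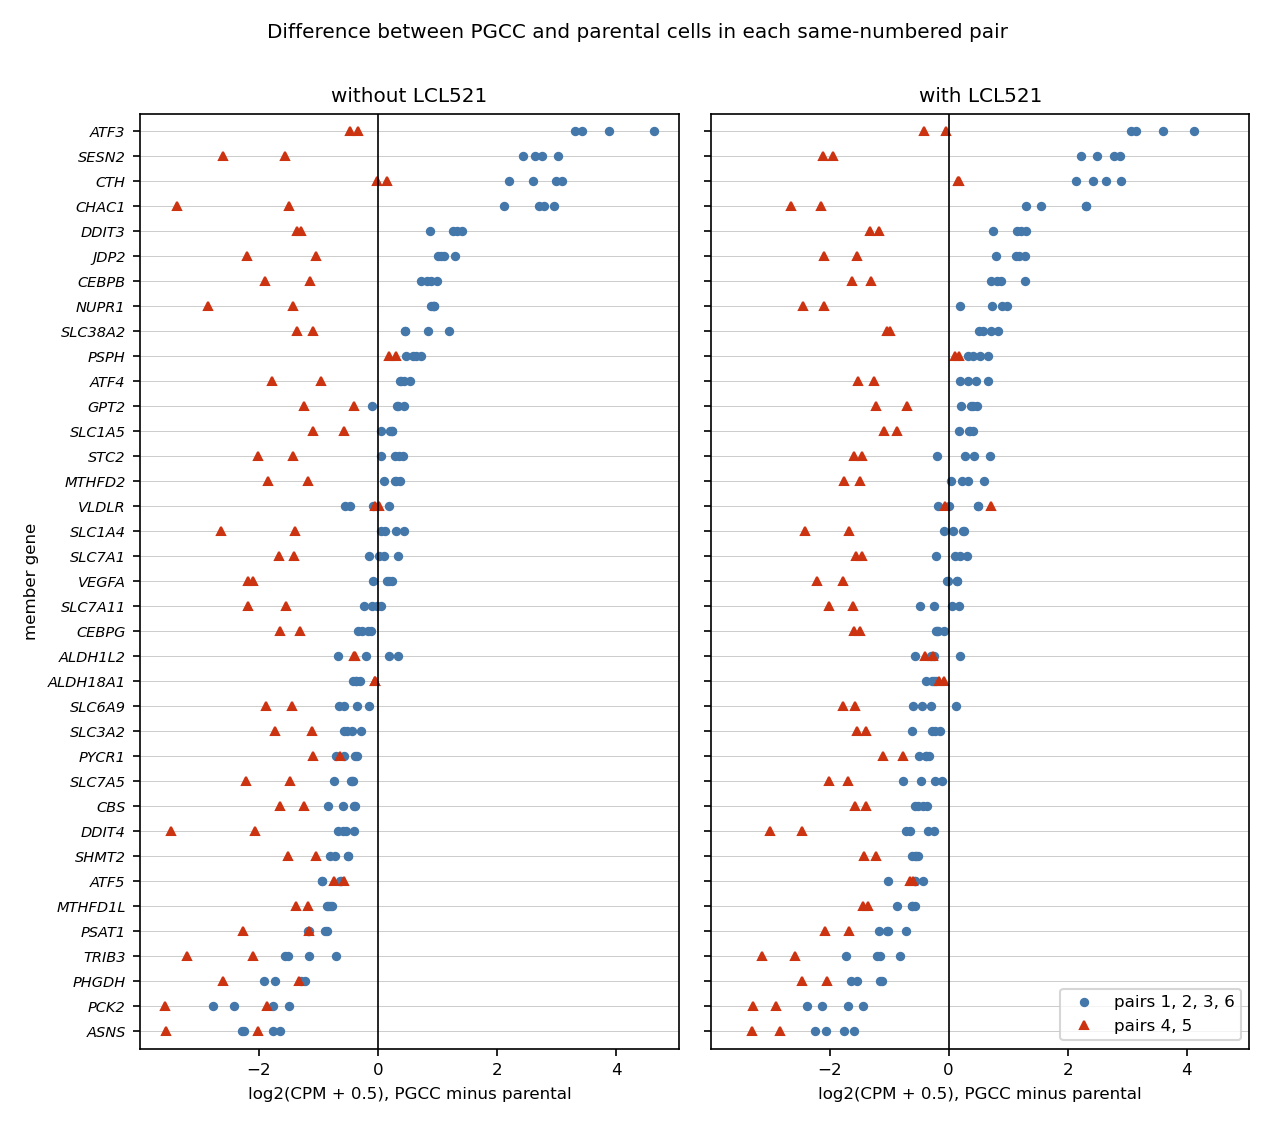
Each point is 1 same-numbered pair, plotted as log2(CPM + 0.5) in PGCC minus that in parental cells, without LCL521 on the left and with LCL521 on the right, for members ordered by the mean of pairs 1, 2, 3 and 6 under LCL521. Blue circles (pairs 1, 2, 3 and 6) cross from below 0 for ASNS and PCK2 to above 0 for ATF3 and SESN2, whereas red triangles (pairs 4 and 5) lie at or below 0 for nearly every member, PSPH and CTH being among the exceptions.

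Of the 9 enzymes of amino acid synthesis, ASNS, PHGDH, PSAT1, PYCR1 and CBS were called lower in PGCC under LCL521 (23.9% of all genes). PSPH and CTH were called higher (25% of all genes), and ALDH18A1 and GPT2 were not called. ASNS, which makes asparagine from aspartate, had a lowest, median and highest value of 384, 489 and 856 CPM in parental cells and 72.2, 116 and 196 CPM in PGCC. Under LCL521 these values were 364, 469 and 777 CPM in parental cells and 76.7, 97.7 and 171 CPM in PGCC. The groups did not overlap in either drug state, although parental replicates 4 and 5 (795 and 856 CPM) were the highest of all. Under LCL521 the log2 fold change was −2.28 ± 0.24 (SE; adjusted p = 3.31e-06), and without replicates 4 and 5 it was −1.83 ± 0.20 (adjusted p = 8.24e-06).

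PHGDH, PSAT1 and PSPH carry out the successive steps of serine synthesis from a glycolytic intermediate, and the last of them did not move with the others. PHGDH ranged from 219 to 390 CPM (median 246) in parental cells and from 61.8 to 147 CPM (median 82.1) in PGCC, and under LCL521 its log2 fold change was −1.65 ± 0.19 (adjusted p = 8.51e-06). PSAT1 ranged from 224 to 483 CPM (median 255) in parental cells and from 99.1 to 182 CPM (median 119) in PGCC, with a log2 fold change of −1.29 ± 0.18 under LCL521 (adjusted p = 5.61e-05). Both fell without overlap of the groups. PSPH, the final phosphatase, was 63.1 to 105 CPM (median 78.0) in parental cells and 98.6 to 123 CPM (median 115) in PGCC. Its log2 fold change under LCL521 was 0.38 ± 0.11 (adjusted p = 0.00914). In the fit with all replicates this step thus rose while the preceding 2 fell. Without replicates 4 and 5 the log2 fold change of PSPH was 0.51 ± 0.11 (adjusted p = 0.00133), which is a description.

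Of the proline and transsulfuration enzymes, PYCR1 and CBS fell and CTH rose. PYCR1, which completes proline synthesis, was 73.1 to 121 CPM in parental cells under LCL521 and 56.3 to 62.9 CPM in PGCC under LCL521 (log2 fold change −0.58 ± 0.12, adjusted p = 0.0013). ALDH18A1, which starts proline synthesis, was 185 to 251 CPM against 165 to 205 CPM; its log2 fold change of −0.21 ± 0.08 missed the threshold (adjusted p = 0.0554), but passed with the block (adjusted p = 0.0141) and without replicates 4 and 5 (−0.25, adjusted p = 0.00963). ALDH18A1 was also one of the only 2 members lower in parental replicates 4 and 5 (189 and 190 CPM) than in the other parental libraries (236 to 269 CPM).

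CBS and CTH catalyse the consecutive steps that turn homocysteine into cysteine, and they moved in opposite directions. CBS was 96.9 to 291 CPM (median 139) in parental cells under LCL521 and 68.0 to 115 CPM (median 96.5) in PGCC under LCL521, a log2 fold change of −0.90 ± 0.26 (adjusted p = 0.0104), or −0.43 ± 0.15 without replicates 4 and 5 (adjusted p = 0.0326). CTH was 2.96, 4.51, 3.16 and 3.25 CPM in parental replicates 2, 3, 1 and 6 and 22.5 and 21.7 CPM in replicates 4 and 5. In PGCC it was 20.5 to 31.6 CPM, so the 2 high parental libraries lay within the range of PGCC and the other 4 lay far below it. Under LCL521 its log2 fold change was 1.45 ± 0.43 (adjusted p = 0.0116), and it was 2.71 ± 0.16 without replicates 4 and 5 (adjusted p = 2.93e-08), but the call was lost when replicate 1 alone was left out (adjusted p = 0.0504). GPT2, a mitochondrial alanine aminotransferase, was 124 to 167 CPM in parental replicates 1, 2, 3 and 6 under LCL521, 366 and 416 CPM in replicates 4 and 5, and 171 to 224 CPM in PGCC under LCL521. The fitted log2 fold change was −0.22 (adjusted p = 0.54) with all replicates and 0.40 (adjusted p = 0.0049) without replicates 4 and 5.

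Among the mitochondrial and one-carbon enzymes, PCK2, SHMT2 and MTHFD1L fell in every fit, and MTHFD2 did not share that pattern. PCK2, the mitochondrial enzyme making phosphoenolpyruvate, was 121, 157 and 308 CPM (lowest, median and highest) in parental cells and 22.4, 34.8 and 72.8 CPM in PGCC. Its log2 fold change under LCL521, −2.33 ± 0.28 (adjusted p = 1.27e-05), was the most negative of the 37 members. SHMT2, which converts serine to glycine in mitochondria, was 344 to 618 CPM in parental cells under LCL521 and 230 to 287 CPM in PGCC under LCL521 (log2 fold change −0.83 ± 0.15, adjusted p = 0.000344). MTHFD1L, the mitochondrial formyltetrahydrofolate synthetase whose promoter match is shown above, was 86.2 to 162 CPM against 58.3 to 74.6 CPM (log2 fold change −0.93 ± 0.16, adjusted p = 0.00024).

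MTHFD2, the mitochondrial folate dehydrogenase, was 163 to 190 CPM in parental replicates 1, 2, 3 and 6 but 501 and 541 CPM in replicates 4 and 5, and 149 to 232 CPM in PGCC. Under LCL521 its log2 fold change was −0.50 (adjusted p = 0.186) with all replicates and 0.33 (adjusted p = 0.0199) without replicates 4 and 5. ALDH1L2, which oxidises formyltetrahydrofolate, remained below 1.46 CPM in all 24 libraries, where 3 counts correspond to up to 0.208 CPM, and differences were not detectable at this depth (log2 fold change −0.46, 95% interval −1.07 to 0.16).

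Of the 8 amino acid transporters, 4 fell in PGCC under LCL521 (23.9% of all genes were called lower), and 2 of these falls were also called without replicates 4 and 5 (24.6% of all genes), a share near that of all genes. SLC7A5 and SLC3A2 encode the light and heavy chain of the large neutral amino acid exchanger LAT1. SLC7A5 was 946, 1332 and 2275 CPM (lowest, median and highest) in parental cells and 492, 783 and 905 CPM in PGCC. SLC3A2 was 409, 538 and 859 CPM in parental cells and 258, 356 and 383 CPM in PGCC. The groups did not overlap in these libraries, but they did under LCL521. There SLC7A5 was 847 to 2035 CPM in parental cells and 506 to 902 CPM in PGCC, and SLC3A2 was 380 to 751 CPM and 254 to 381 CPM. Under LCL521 their log2 fold changes were −0.92 ± 0.22 (adjusted p = 0.00376) and −0.71 ± 0.18 (adjusted p = 0.00418), and −0.39 (adjusted p = 0.044) and −0.30 (adjusted p = 0.0425) without replicates 4 and 5. Both chains were thus lower in PGCC, by a smaller amount in the 4 pairs than in all 6. Per kilobase of gene length as deposited, these 2 genes had the highest mean levels of the set, 335 ± 125 and 254 ± 77.9 CPM per kb (SD, n = 6) in parental cells and 166 ± 32.6 and 144 ± 19.2 CPM per kb in PGCC.

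The fits of the other 6 transporters under LCL521 depended on replicates 4 and 5. SLC7A11, the cystine importer partnered by the SLC3A2 product, was 69.6 to 107 CPM in parental replicates 1, 2, 3 and 6, 353 and 361 CPM in replicates 4 and 5, and 69.2 to 121 CPM in PGCC. Its log2 fold change under LCL521 was −0.98 ± 0.39 (adjusted p = 0.0482), but −0.65 (adjusted p = 0.079) with the block and −0.11 (adjusted p = 0.597) without replicates 4 and 5. SLC6A9, a glycine transporter, was 19.4 to 27.8 CPM in parental replicates 1, 2, 3 and 6, 99.1 and 83.9 CPM in replicates 4 and 5, and 16.2 to 36.2 CPM in PGCC, with a log2 fold change under LCL521 of −0.98 (adjusted p = 0.0272) and −0.29 (adjusted p = 0.0999) without replicates 4 and 5. For both genes 2 parental libraries without LCL521 were more than 3 times the level of the others. Under LCL521, SLC6A9 was 88.3 and 77.5 CPM in parental replicates 4 and 5 and 19.6 to 31.2 CPM in replicates 1, 2, 3 and 6. Without LCL521, SLC6A9 was nevertheless lower in PGCC in all 6 pairs, with log2 differences of −0.57, −0.16, −0.35 and −0.65 in pairs 1, 2, 3 and 6.

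SLC1A5 and SLC38A2, carriers of glutamine and other small neutral amino acids, took the crossing pattern in both drug states. SLC38A2 was 186 to 294 CPM in parental replicates 1, 2, 3 and 6, 839 and 725 CPM in replicates 4 and 5, and 283 to 425 CPM in PGCC, and under LCL521 its log2 fold change was −0.03 (adjusted p = 0.941), or 0.69 ± 0.08 (adjusted p = 2.07e-05) without replicates 4 and 5. SLC1A5 gave −0.16 (adjusted p = 0.542) and 0.35 (adjusted p = 0.00605) in the same fits. SLC1A4, a transporter of serine and alanine, was 22.9 to 30.0 CPM in parental replicates 1, 2, 3 and 6 and 161 and 153 CPM in replicates 4 and 5, and SLC7A1, which imports arginine and lysine, was 111 to 165 CPM and 392 and 380 CPM. Neither passed the threshold under LCL521, with adjusted p values of 0.0777 and 0.104 with all replicates and 0.391 and 0.51 without replicates 4 and 5.

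Of the 11 members that crossed in both drug states, 6 were transcription factors. The ATF4 transcript itself was 185, 170, 192 and 210 CPM in parental replicates 1, 2, 3 and 6, and 645 and 783 CPM in replicates 4 and 5. In PGCC it was 227, 249 and 331 CPM (lowest, median and highest), above the first 4 parental libraries and below the other 2. Under LCL521 the log2 fold change was −0.45 ± 0.35 (adjusted p = 0.297) with all replicates, −0.15 (adjusted p = 0.692) with the block and 0.43 ± 0.11 (adjusted p = 0.00523) without replicates 4 and 5. ATF4 activity is set mainly by translation, and no protein was measured in these files.

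ATF3, a stress-induced partner and repressor in this network, was 2.94, 2.44, 3.01 and 2.35 CPM in parental replicates 1, 2, 3 and 6 and 21.5 and 21.1 CPM in replicates 4 and 5. In PGCC it was 33.8, 43.0, 37.1 and 70.7 CPM in replicates 1, 2, 3 and 6 and 15.4 and 16.6 CPM in replicates 4 and 5. The direction in pairs 4 and 5 was thus the opposite of that in the other 4, since these replicates were high among parental libraries and low among PGCC libraries. The fitted log2 fold change under LCL521 was 2.01 ± 0.56 (adjusted p = 0.00811), and 3.77 ± 0.25 (adjusted p = 7.98e-08) without replicates 4 and 5, more than any other member.

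DDIT3, JDP2, NUPR1 and CEBPB resembled ATF4 in their order across the libraries. DDIT3, encoding the death-promoting factor CHOP, was 2.61 to 3.53 CPM in parental replicates 1, 2, 3 and 6, 15.7 and 17.0 CPM in replicates 4 and 5 and 5.24 to 9.94 CPM in PGCC. NUPR1, a small chromatin-associated stress protein, was 11.8 to 14.2 CPM, 138 and 142 CPM and 19.3 to 51.2 CPM in the same groups. JDP2, a repressor related to ATF3, was 5.48 to 6.78 CPM, 51.7 and 48.4 CPM and 10.1 to 25 CPM. CEBPB, a dimer partner of ATF4, was 63.1 to 78.4 CPM, 224 and 210 CPM and 56.0 to 146 CPM, and unlike the other 3 it overlapped with the low parental libraries in PGCC. None of the 4 passed the threshold under LCL521 with all replicates (adjusted p from 0.145 for NUPR1 to 0.992 for DDIT3). Without replicates 4 and 5 all 4 were called higher, with log2 fold changes of 1.22 for DDIT3, 1.17 for JDP2, 0.97 for CEBPB and 0.73 for NUPR1 (adjusted p = 0.000798, 1.13e-05, 1.35e-05 and 0.00178). These calls are descriptions, since the removal follows the division used to propose the members.

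CEBPG and ATF5 were the transcription factors that were lower in PGCC in all pairs. CEBPG, another dimer partner of ATF4, was 62.0 to 67.0 CPM in parental replicates 1, 2, 3 and 6, 182 and 164 CPM in replicates 4 and 5, and 51.9 to 73.6 CPM in PGCC. Under LCL521 its log2 fold change was −0.77 (adjusted p = 0.0295), but −0.14 (adjusted p = 0.163) without replicates 4 and 5. ATF5, an activator of the mitochondrial stress response, went against the rest of the set in replicates 4 and 5. It was 145 to 194 CPM in parental replicates 1, 2, 3 and 6 but 76.5 and 85.0 CPM in replicates 4 and 5, and 92.4 to 116 CPM against 51.2 and 50.5 CPM in the same replicates of PGCC. As replicates 4 and 5 were low in both populations, the log2 fold change of ATF5 under LCL521 was nearly the same in each fit, −0.62 (adjusted p = 0.0608), −0.61 ± 0.08 with the block (adjusted p = 0.000148) and −0.62 without replicates 4 and 5 (adjusted p = 0.000429).

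**Figure D4:**
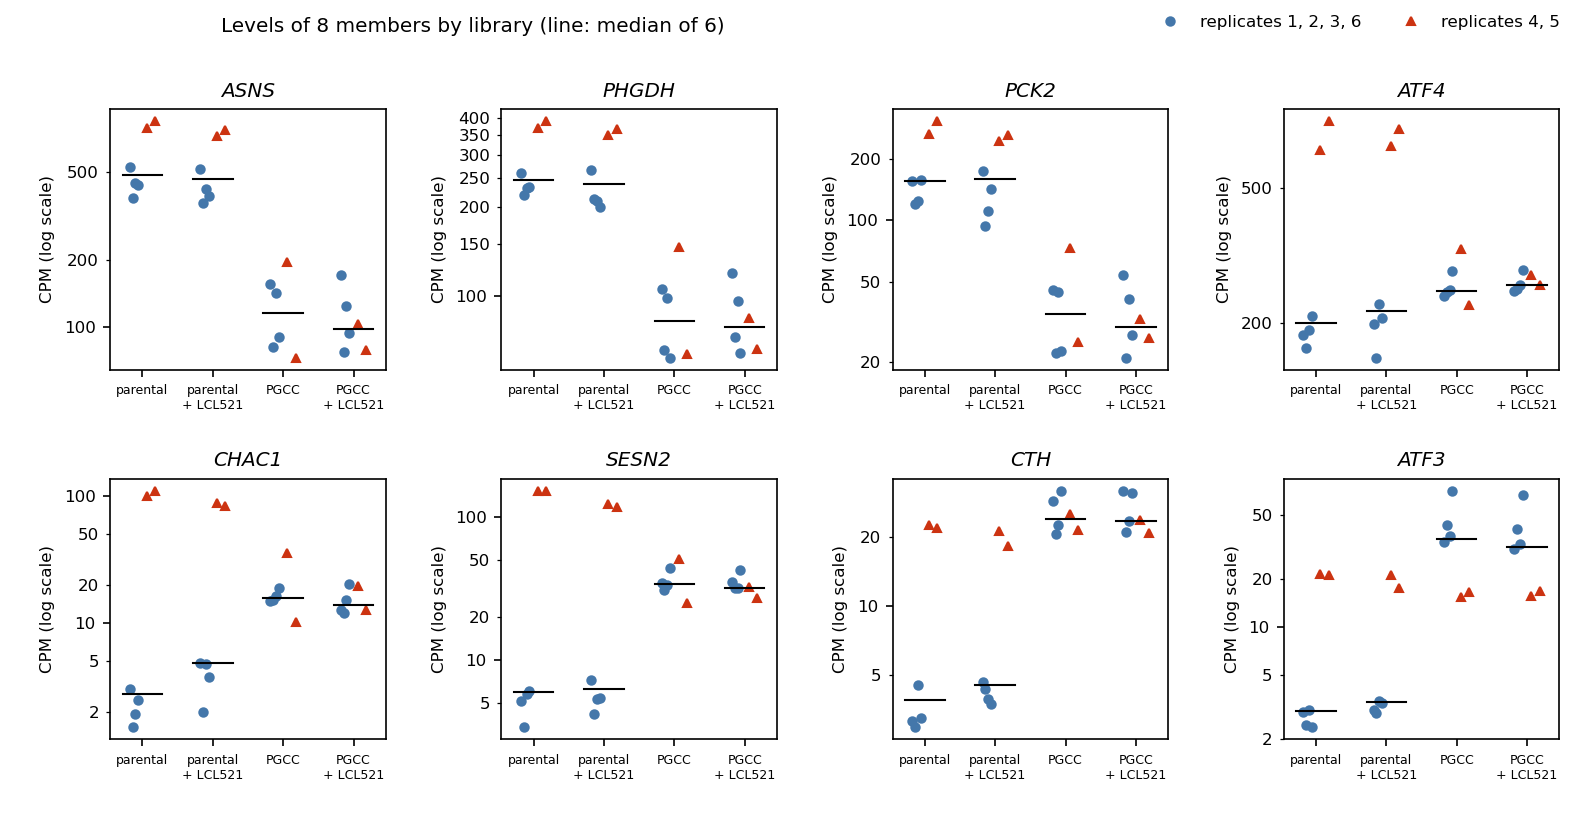
Levels of 8 members in CPM, on a log scale, are shown for each library in the 4 conditions, with replicates 4 and 5 as red triangles and the median of 6 libraries as a line. ASNS, PHGDH and PCK2 are lower in PGCC than in every parental library, whereas for ATF4, CHAC1 and SESN2 the PGCC libraries lie between the 4 low and the 2 high parental libraries.

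The stress effectors divided in the same way. CHAC1, which degrades glutathione, was 3.05, 1.51, 1.93 and 2.49 CPM in parental replicates 1, 2, 3 and 6 and 100 and 110 CPM in replicates 4 and 5, and in PGCC it was 10.1, 15.7 and 35.3 CPM (lowest, median and highest). SESN2, a leucine sensor that restrains the growth kinase mTORC1, was 5.12, 3.36, 5.78 and 6.09 CPM in parental replicates 1, 2, 3 and 6 and 152 and 154 CPM in replicates 4 and 5, and in PGCC it was 25, 34.0 and 51.4 CPM. For both genes every PGCC library lay between the low and the high parental libraries. In the pairs without drug, the log2 difference of CHAC1 ran from 2.11 to 2.96 in pairs 1, 2, 3 and 6, and was −1.50 and −3.37 in pairs 4 and 5. Under LCL521 the fitted log2 fold change of CHAC1 was −0.99 (adjusted p = 0.323) with all replicates, 0.48 (adjusted p = 0.628) with the block and 2.00 ± 0.25 (adjusted p = 2.65e-05) without replicates 4 and 5. For SESN2 the same 3 values were −0.39 (adjusted p = 0.706), 1.20 (adjusted p = 0.261) and 2.72 ± 0.16 (adjusted p = 2.78e-08).

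TRIB3 and DDIT4 instead fell in each of these fits. TRIB3, a pseudokinase that feeds back on ATF4, was 118 to 215 CPM in parental replicates 1, 2, 3 and 6, 689 and 811 CPM in replicates 4 and 5, and 54.8 to 160 CPM in PGCC. Its log2 fold change under LCL521 was −2.10 ± 0.42 (adjusted p = 0.000883), and −1.24 ± 0.18 without replicates 4 and 5 (adjusted p = 8.86e-05). DDIT4, an inhibitor of mTORC1, was 17.3 to 22.1 CPM in parental replicates 1, 2, 3 and 6, 116 and 120 CPM in replicates 4 and 5, and 10.3 to 27.4 CPM in PGCC. The log2 fold change of DDIT4 was −1.75 ± 0.51 (adjusted p = 0.0105), and −0.47 ± 0.11 without replicates 4 and 5 (adjusted p = 0.00297), so most of the fitted size rested on those replicates although the direction did not.

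The secreted proteins STC2 and VEGFA were high in parental replicates 4 and 5, and the receptor VLDLR was not. STC2, a stanniocalcin, was 148 to 185 CPM in parental replicates 1, 2, 3 and 6 and 522 and 519 CPM in replicates 4 and 5, and VEGFA, the angiogenic factor, was 107 to 157 CPM and 645 and 470 CPM. In PGCC they were 129 to 236 CPM and 103 to 179 CPM. Neither passed the threshold under LCL521 with all replicates (adjusted p = 0.212 and 0.0573), and without replicates 4 and 5 STC2 was called higher (log2 fold change 0.32, adjusted p = 0.0469) and VEGFA was not (0.09, adjusted p = 0.611). VLDLR, a lipoprotein receptor, ranged from 3.53 to 5.98 CPM in parental cells and from 2.99 to 5.41 CPM in PGCC, so the groups overlapped.

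LCL521 was then compared with no drug within each population. None of the 37 members passed the threshold in parental cells (0% of 13277 genes) or in PGCC (0.00707% of 14151 genes). In parental cells no gene was called by edgeR, with 71 (0.535%) at an unadjusted p under 0.05, none of them members, and DESeq2 called 0 with 83. In PGCC DESeq2 called 7 genes, none of them members. Fitting the replicate as a block raised the calls to 0.866% of genes in parental cells and 1.65% in PGCC, still without a member. With the block, 10 members reached an unadjusted p under 0.05 in parental cells (12.4% of all genes), 9 of them lower under LCL521, and 3 did so in PGCC (14.3% of all genes), with smallest adjusted p values of 0.200 and 0.216.

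The members with the smallest p values are given with their intervals. In parental cells these were VLDLR, SLC3A2 and ALDH18A1, with log2 fold changes of −0.23 (95% interval −0.74 to 0.28), −0.15 (−0.63 to 0.34) and −0.06 (−0.29 to 0.17). In PGCC they were PSPH, CHAC1 and VLDLR, at −0.08 (−0.22 to 0.07), −0.26 (−0.79 to 0.27) and 0.16 (−0.19 to 0.51). ATF4 gave 0.01 in parental cells, where the interval ran from −1.10 to 1.12 and narrowed to −0.06 to 0.14 with the block, and 0.00 in PGCC, with an interval of −0.18 to 0.18. A change of ATF4 mRNA larger than the blocked interval was therefore not found after 5 h.

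No gene, and so no member, passed the interaction of LCL521 with population (0 of 14555 by edgeR with 60 at an unadjusted p under 0.05, and 0 by DESeq2 with 54). The 2 members with the smallest p for it were VLDLR, with a difference of 0.40 (95% interval −0.20 to 1.00) on the log2 scale, and PSPH, with −0.11 (−0.46 to 0.25).

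Other genes of the pathway were counted from lists drawn up by function. Their counts stand beside shares of all genes of 25% called higher and 23.9% called lower in PGCC under LCL521, 27.9% and 24.6% without replicates 4 and 5, and 25.2% above and 25.5% below in parental replicates 4 and 5. Of 17 genes for eIF2 kinases and the eIF2 phosphorylation machinery, 1 rose and 5 fell in PGCC under LCL521, and without replicates 4 and 5 the counts were 3 and 5. These 6 calls of 17 are a smaller share than the 48.9% of all genes. The gene that rose was EIF2AK3, the endoplasmic reticulum stress kinase PERK (22.3 to 31.8 CPM in parental cells and 30.0 to 49.4 CPM in PGCC, both under LCL521; log2 fold change 0.60 ± 0.13, adjusted p = 0.00173). IMPACT, an inhibitor of the amino acid sensing kinase GCN2, and EIF2B4, a subunit of the eIF2 exchange factor, had the largest falls (−0.86 and −0.65, adjusted p = 0.000938 and 0.000537). IMPACT, but not EIF2B4, was higher in parental replicates 4 and 5 than in the other 4, with and without LCL521. PPP1R15A, which dephosphorylates eIF2 and is itself induced with this pathway, had the highest ratio of the list between parental replicates 4 and 5 and the other 4, at 3.42.

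Of 21 further reported targets of ATF4 and CHOP that were tested, 2 rose and 9 fell in PGCC under LCL521 (median log2 fold change −0.54), and without replicates 4 and 5 the counts were 8 and 7 (median −0.11). INHBE, an activin subunit, and WARS, the tryptophanyl-tRNA synthetase, had the largest falls (−1.87 and −1.39, adjusted p = 0.0329 and 9.84e-05), although INHBE did not pass without replicates 4 and 5 (adjusted p = 0.299). Both genes were higher in parental replicates 4 and 5 than in the other 4 libraries, with and without LCL521. GADD45A and ERO1L, a growth arrest protein and an oxidase of the endoplasmic reticulum, rose (0.82 and 0.42, adjusted p = 0.00714 and 0.000282). In parental cells, 19 of these 21 genes were higher in replicates 4 and 5 than in the other 4 libraries (25.2% of all genes), with a median ratio of 2.04 and a highest of 18.8 for BBC3, which encodes the pro-apoptotic protein PUMA. In PGCC 4 of 21 were (21.6% of all genes). This list too was drawn up with results of these libraries known, so its values are a description.

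Enzymes and transporters of the same processes outside the member set were counted in the same way. Since the members were chosen with the division of the parental libraries in view, a smaller share of other genes with it is no finding. Of 17 other serine, glycine and one-carbon genes tested, 4 rose (25% of all genes) and 3 fell (23.9%), neither above the share of all genes, and without replicates 4 and 5 the counts were 4 and 5. In parental replicates 4 and 5, 2 of them were above (25.2% of all genes) and 10 were below (25.5%). SHMT1, the cytosolic serine hydroxymethyltransferase, was among those that rose (log2 fold change 1.45, adjusted p = 9.54e-07), and MTRR, which reactivates methionine synthase, was among those that fell (−0.55, adjusted p = 0.00477). The cytosolic SHMT1 therefore rose where the mitochondrial SHMT2 fell. Of 16 other glutamate, proline, aspartate and arginine genes, 3 rose and 4 fell, or 4 and 2 without replicates 4 and 5, and in parental replicates 4 and 5, 5 were above and 5 below. Among them ALDH4A1, of proline breakdown, rose (0.66, adjusted p = 0.000135), and BCAT1 and GPT, which transfer amino groups from branched-chain amino acids and alanine, fell (−0.90 and −0.73, adjusted p = 0.000591 and 0.0445). BCAT1, but not GPT, was among the genes above in parental replicates 4 and 5, with and without LCL521.

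Of 14 other amino acid transporters, 2 rose (25% of all genes) and 6 fell (23.9%), or 2 and 5 without replicates 4 and 5. In parental replicates 4 and 5, 2 of the 14 were above (25.2% of all genes) and 4 were below (25.5%). SLC7A8, the light chain of a second large neutral amino acid exchanger that also pairs with the SLC3A2 product, rose in PGCC (101 to 167 CPM) over parental cells (31.9 to 73.6 CPM), both under LCL521 (1.68 ± 0.20, adjusted p = 9.46e-06), the opposite direction to SLC7A5. SLC36A4 also rose (0.30, adjusted p = 0.00657), and the glutamate transporter SLC1A3 and the lysosomal transporter SLC36A1 had the largest falls (−1.79 and −1.11, adjusted p = 2.54e-06 and 6.01e-05). Of 15 genes of the ATF6 and XBP1 arm, the branch of the unfolded protein response that supplies chaperones, 6 rose and 4 fell (median log2 fold change −0.12), and without replicates 4 and 5 the counts were 8 and 3 (median 0.27). In parental replicates 4 and 5, 7 of the 15 were above and 3 below. MANF and CRELD2, secreted stress proteins, had the largest rises (0.73 and 0.67, adjusted p = 2.23e-05 and 0.00173), and SEL1L and ATF6 the largest falls (−0.75 and −0.69, adjusted p = 0.00378 and 0.0119). SEL1L and ATF6 were among the genes above in parental replicates 4 and 5, with and without LCL521, so these falls come with 2 high parental libraries.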

How the data were processed

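Total RNA was sequenced from 24 libraries, and per the labels and the study's methods the authors aligned reads with STAR to build hg19 and counted genes with HTSeq; whether counting used strand is not given in the sources used here. The authors deposited whole-number counts per gene. In the series design, the 4 conditions were repeated as 6 experiments. Same-numbered libraries deviated together (lowest pair correlation 0.171 over the 4 comparisons, medians 0.272 to 0.652), whereas the medians for different numbers were −0.337 to −0.0799. Some different-numbered libraries correlated more closely. Without drug, parental replicate 5 gave 0.396 with PGCC replicate 4 and 0.265 with PGCC replicate 5. Numbers were therefore treated as possible pairs, and fits with and without the block are given. Counts were tested with edgeR 4.0.16 (filterByExpr with a minimum count of 10, TMM, quasi-likelihood test, Benjamini-Hochberg, 0.05) in R 4.3.3, on the 2 groups compared; CPM used TMM over 24 libraries. DESeq2 1.42.0 and limma 3.58.1 (voom), other scalings, filters and left-out replicates were alternatives. In a simulation of PGCC against parental cells under LCL521, 200 genes of 13664 were changed by 1 on the log2 scale. With a replicate effect of SD 0.5 shared by both groups, the block recovered 170, with 12 other calls, and the fit without it 0. With no replicate effect (13665 genes), the block recovered 174 and the fit without it 180. The simulated effect was common to both groups, unlike the division of parental replicates 4 and 5, so the simulation does not bear on that division. Its SD was set to 1 value for every gene and was not estimated from these data. In the data the same comparison gave 6758 calls without the block and 7780 with it, so the 0 does not describe the main fit. The members and lists (eIF2 machinery, serine and folate genes, glutamate and proline genes, transporters, ATF4 and CHOP targets, ATF6 and XBP1 arm, cell markers) were chosen with earlier results of these data known. Every member is named for PGCC against parental cells. For LCL521 the rule named members past the threshold, otherwise the 3 smallest p, and ATF4; for the interaction the 2 smallest p; for each list the 2 largest rises and falls among genes called in PGCC under LCL521. PECAM1 was not analysed here, and some genes of these lists are not reported here.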

Additional observations from a re-analysis of the deposited data

Results flagged for a closer look

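In 148 groups of 6 libraries (37 members in 4 conditions), 7 held 1 library whose gap to the nearest of the others, divided by the range of the group, exceeded 0.625 on the scale of log2(CPM + 0.5); chance alone would flag about 1 in 20 groups. Low values were found in replicate 5 of PGCC for MTHFD2 (149 CPM against 201 to 232, gap share 0.672 on the log2 scale), SLC3A2 (258 against 335 to 383, 0.664) and STC2 (129 against 189 to 236, 0.636), and in replicate 5 of PGCC under LCL521 for JDP2 (8.53 against 13.4 to 16.0, 0.712). High values were found in replicate 4 of PGCC for CEBPG (73.6 CPM against 51.9 to 57.5, 0.709) and NUPR1 (51.2 against 19.3 to 27.3, 0.646), and in replicate 4 of PGCC under LCL521 for DDIT4 (22.6 against 12.2 to 14.9, 0.684). All 7 were in PGCC conditions and in replicate 4 or 5. A pair of high libraries, as in parental replicates 4 and 5, cannot be flagged in this way.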

How the results depend on the processing

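The removal of replicates 4 and 5, which follows the division used to propose the members, moved the counts of members most. In PGCC against parental cells it raised the members called from 19 to 30 (32 with the replicate block) and those higher from 3 to 14 (16 with the block); under LCL521 it raised them from 18 to 29 (29 with the block) and from 3 to 15 (15). Leaving out 1 replicate gave 1 to 3 higher members without drug. Under LCL521 the calls of CEBPG and SLC6A9 were lost without replicate 4 or 5, that of SLC7A11 without 1, 4, 5 or 6, and that of CTH without 1. In all 17 fits, ASNS, CBS, MTHFD1L, PCK2, PHGDH, PSAT1, PYCR1, SHMT2, SLC3A2, SLC7A5 and TRIB3 were called lower.

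Under LCL521 the log2 fold changes that turned positive without replicates 4 and 5 were (with the block in parentheses) GPT2 0.40 (0.41), MTHFD2 0.33 (0.33), SLC7A1 0.12 (0.14), SLC1A4 0.15 (0.16), SLC1A5 0.35 (0.35), SLC38A2 0.69 (0.69), ATF4 0.43 (0.44), CEBPB 0.97 (0.96), DDIT3 1.22 (1.23), JDP2 1.17 (1.18), NUPR1 0.73 (0.74), CHAC1 2.00 (2.01), SESN2 2.72 (2.73), STC2 0.32 (0.33) and VEGFA 0.089 (0.092). With the replicate block on all pairs, and with limma-voom in parentheses, SLC38A2 gave 0.14 (0.13), CEBPB 0.19 (0.16), DDIT3 0.35 (0.39), JDP2 0.18 (0.18), CHAC1 0.48 (0.56) and SESN2 1.20 (1.15). Library totals gave 0.033, 0.050 and 0.059 and the filter of 10 counts in every library 0.0035, 0.024 and 0.026 for SLC38A2, CEBPB and DDIT3. Leaving out 1 replicate gave −0.34 to 0.062 for GPT2, −0.26 to 0.042 for SLC1A5, −0.19 to 0.26 for SLC38A2, −0.27 to 0.34 for CEBPB, −0.26 to 0.40 for DDIT3, −0.55 to 0.16 for JDP2 and −0.71 to 0.28 for SESN2. The cause was not tested.

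For LCL521, the block called 115 genes in parental cells (3 without replicates 4 and 5) and 234 in PGCC (129), where the main test called 0 and 1; in PGCC DESeq2 called 7, and limma-voom, the fit of all 24 libraries and the removal of replicates 4 and 5 called 0, with 0 to 1 on leaving out 1 replicate. ATF4 stayed near 0: −0.016 to 0.061 in parental cells and −0.030 to 0.063 in PGCC on leaving out 1 replicate, and −0.00075 in PGCC in the fit of all 24 libraries. Under LCL521 the replicate block added the calls of ALDH18A1 and ATF5 and lost that of SLC7A11, limma-voom lost those of CEBPG, DDIT4 (adjusted p = 0.0624), SLC6A9 and SLC7A11, and without drug the block on all pairs changed no member's call, while on the 4 pairs left without replicates 4 and 5 it added SLC1A4 and SLC1A5. Depth limited ALDH1L2.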
